A study of Homo sapiens with 4 samples.

Results

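The genes described here write, copy, read and remove 5-methylcytosine (5mC) in DNA: the oxidases TET1, TET2 and TET3, the methyltransferases DNMT1, DNMT3A and DNMT3B, the readers of hemimethylated CpG sites UHRF1 and UHRF2, and the DNA glycosylase TDG. They were taken by symbol from a table of 62893 Ensembl genes. Of the 9 genes, 8 were paired with a row. The gene name tables used, of a later build than the hg19 counts, give UHRF1 an ID that the count table does not hold. None of them pairs an older ID with UHRF1, which may have a row under one, and UHRF1 is not analysed here. All 8 passed the filter on low counts and were among the 16889 genes tested, and each of them, including TET1 at the lowest level, had counts in every library.

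The samples were poly(A) RNA of T24, an established line from a carcinoma of the human urinary bladder, in 2 groups of 2 libraries. The siControl group received control siRNA and the siNSUN2 group siRNA directed at NSUN2, an RNA m5C methyltransferase; the number and sequence of the siRNAs, the dose and the time after transfection were not given in the sources used here. The comparison asks which transcripts differ in level when NSUN2 is depleted. Nothing says that the replicates were separate cultures, so the spread between them, and the p-values built on it, may be technical.

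In vertebrate DNA, DNMT3A and DNMT3B place new methyl groups, mostly on CpG sites, and DNMT1 restores them on the new strand after replication, where UHRF1 recruits it to hemimethylated sites. TET enzymes oxidise 5mC stepwise to 5-hydroxymethylcytosine, 5-formylcytosine and 5-carboxylcytosine, using iron and 2-oxoglutarate. TDG excises the last 2 forms, and base excision repair then puts back an unmodified cytosine. TET2 and DNMT3A are known for mutations in blood cancers, and TET enzymes have also been described to oxidise m5C in RNA.

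The libraries held between 33633249 and 215936965 counts, and 1 CPM (count scaled to library size, here with TMM factors) stands for 33.6 to 216 reads. NSUN2 itself stood at 281 and 284 CPM in the siControl libraries and at 29.6 and 30.1 CPM in the siNSUN2 libraries, a log2 fold change of −3.24 with an SE of 0.043. The epithelial keratins KRT7, KRT8 and KRT18 were all above 100 CPM, whereas KRT19, EPCAM and CDH1 were under 1 CPM in every library, as were 4 of 6 urothelial markers, among them UPK3A at 0 throughout. Summed markers of immune cells (0 to 0.141 CPM in siControl, 0.12 to 2.25 in siNSUN2), endothelium (0.287 to 0.471 and 0.708 to 2.22), fibroblasts (1.01 to 2.07 and 3.15 to 3.53) and erythroid cells (0 to 0.498 and 0 to 2.66) were low, with siNSUN2 replicate 2 the highest in each; their part in the results was not tested.

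Of the 8 genes, 4 rose (TET3, DNMT3B, DNMT3A and TET2), 2 fell (UHRF2 and TDG) and TET1 and DNMT1 did not pass the test (edgeR quasi-likelihood test, adjusted p under 0.05 over all genes tested). Among all genes tested, 52.6% passed, 27.1% upward and 25.5% downward, so a call by itself sets none of these genes apart. TET3 and DNMT3B had the large changes, each at 2.37 times the control level; 4.58% and 4.60% of all genes tested had a larger log2 fold change. The median log2 fold change of the 8 genes was 0.38, against 0.03 for all genes tested. In bulk RNA, a change in transcript level per cell cannot be told apart from a change in which cells make up the culture.

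The starts of the pair with the large rises are shown because TET3 and DNMT3B had the largest changes of the 8 genes. The windows run from 250 bases before to 50 after the start (RefSeq, GRCh38.p14; the counts were made on hg19, and which start is used in T24 cells cannot be read from gene counts). In the promoter set used, TET3 has 2 starts, at chr2:73984660-73984959 and chr2:74002442-74002741, both on the plus strand. DNMT3B has 1 in that set, at chr20:32779602-32779901, on the plus strand. Other starts of these genes may be missing from the set, so the windows describe only the starts listed. Capitals mark the GC box GGGCGG, known as a site for SP1, on either strand.

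TET3, first start: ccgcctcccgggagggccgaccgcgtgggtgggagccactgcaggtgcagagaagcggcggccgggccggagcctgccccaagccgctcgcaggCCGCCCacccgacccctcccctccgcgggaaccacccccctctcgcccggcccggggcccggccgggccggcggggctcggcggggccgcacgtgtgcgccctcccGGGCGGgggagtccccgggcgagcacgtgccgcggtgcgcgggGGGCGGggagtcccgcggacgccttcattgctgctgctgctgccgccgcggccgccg

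TET3, second start: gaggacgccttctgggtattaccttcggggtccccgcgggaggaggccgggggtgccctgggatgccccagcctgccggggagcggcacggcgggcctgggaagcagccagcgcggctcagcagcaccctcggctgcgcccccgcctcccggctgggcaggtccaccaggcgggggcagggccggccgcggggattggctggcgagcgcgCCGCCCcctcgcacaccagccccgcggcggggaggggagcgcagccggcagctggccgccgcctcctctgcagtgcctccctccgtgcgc

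DNMT3B: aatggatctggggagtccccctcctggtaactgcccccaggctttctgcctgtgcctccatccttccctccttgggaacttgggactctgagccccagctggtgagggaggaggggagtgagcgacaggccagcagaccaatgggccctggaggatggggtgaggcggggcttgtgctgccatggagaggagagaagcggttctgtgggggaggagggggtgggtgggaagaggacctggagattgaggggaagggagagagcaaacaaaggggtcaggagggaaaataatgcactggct

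The TET3 windows hold 45 and 33 CpG sites, and the DNMT3B window holds 3. Of 35116 promoter windows of this length, 96.5% hold fewer CpG sites than the first TET3 window and 18.2% hold fewer than this DNMT3B window. The median is 14. The GC box occurred 3 times and 1 time in the TET3 windows and not in that of DNMT3B, against 45.0% of all windows with at least 1 match. The E-box CACGTG, searched on both strands, was found in the first TET3 window (2 matches) and is present in 7.26% of all windows. Of the 17 windows of the 8 genes, 5 hold it: 1 of TET2, 1 of TET3, 2 of DNMT3A and 1 of TDG. Some windows of TET1 and of DNMT3A overlap each other, and the 2 DNMT3A windows with this E-box hold the same site. The letters TTTCCCGC, an E2F site, were found in none of the 17 windows and in 1.63% of all windows. No match of one of these motifs overlapped another in those 17 windows. Across the other genes, CpG counts ran from 6 to 11 in the 3 windows of TET1, 13 and 35 in the 2 of TET2 and 18 to 46 in the 6 of DNMT3A, with 30 for DNMT1, 26 for UHRF2 and 22 for TDG.

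Compared per kilobase of merged exons (RPKM, from the TMM-scaled library sizes), the maintenance enzyme gene DNMT1 was the most abundant in siControl cells, at 27.4 ± 0.0982 RPKM (mean ± SD, n = 2). TDG followed at 15.1 ± 0.429, UHRF2 at 6.17 ± 0.0308 and DNMT3B at 3.81 ± 0.132 RPKM. TET3 (2.63 ± 0.127 RPKM) and TET2 (2.59 ± 0.0532 RPKM) came next and overlapped between libraries. DNMT3A stood at 0.710 ± 0.0119 and TET1 at 0.164 ± 0.00156 RPKM. All other neighbours in this order lay apart by more than their spread. In siNSUN2 cells DNMT1 (26.0 ± 0.459 RPKM) and TDG (12.5 ± 0.0702) still led, but DNMT3B, at 9.06 and 8.95 RPKM in the 2 libraries, and TET3, at 6.25 ± 0.0352 RPKM, then stood above UHRF2, at 5.06 ± 0.0914 RPKM. TET2 (3.18 ± 0.148), DNMT3A (1.11 ± 0.107) and TET1 (0.223 ± 0.0129 RPKM) kept their places at the low end. These levels depend on the length taken for each gene, since the exons used in T24 cells are unknown.

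**Figure D1:**
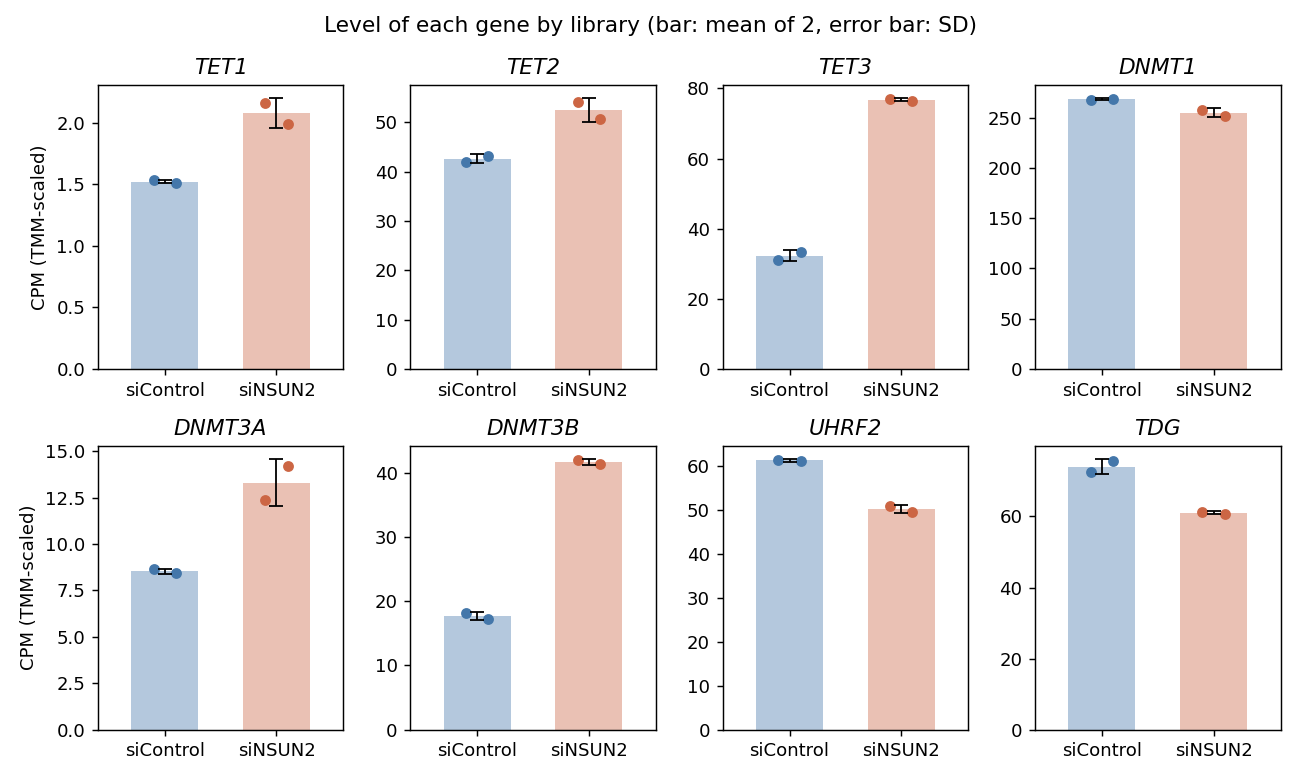
Level of each of the 8 genes in CPM scaled by TMM factors, with 1 panel per gene, an axis from 0, points for the 2 libraries of each group, bars for their mean and error bars for the SD. TET3 went from 31.2 and 33.4 to 77.0 and 76.4 CPM and DNMT3B from 18.1 and 17.2 to 42.0 and 41.4 CPM, while the DNMT1 groups lay within 252 to 269 CPM.

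Among the oxidases, TET3, which acts in the zygote and in neurons and is the form that oxidises the paternal genome, had 1326 and 7105 counts in the siControl libraries and 7073 and 2616 in the siNSUN2 libraries. Scaled, these were 31.2 and 33.4 against 77.0 and 76.4 CPM, with both siNSUN2 libraries far above both controls. The log2 fold change was 1.25 (SE 0.048, 95% interval 1.14 to 1.35, adjusted p = 1.21e-07). It stayed between 1.13 and 1.28 with each library left out in turn, and was 1.08 once each library was corrected for trends with GC content and transcript length (GC-length correction).

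TET2, the oxidase without a CXXC DNA-binding domain of its own, stood at 42.0 and 43.2 CPM in siControl and at 54.1 and 50.7 CPM in siNSUN2 libraries. The groups did not overlap, and the rise was small, 0.30 on the log2 scale with an SE of 0.050 (adjusted p = 7.19e-04). It did not pass a test against a fold of 1.2 (adjusted p = 0.218).

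TET1, prominent in embryonic stem cells, was near the floor of this table, with 65 and 321 counts in siControl and 198 and 68 in siNSUN2 libraries, or 1.53 and 1.51 against 2.16 and 1.99 CPM. Both siNSUN2 libraries were higher, but the log2 fold change of 0.45 (SE 0.21) did not pass (adjusted p = 0.104), and its 95% interval ran from −0.03 to 0.93. At this level a change as large as that of DNMT3A lies within the interval and one as large as that of TET3 does not. It passed with limma-voom, at 0.48 (adjusted p = 0.0358), and after the GC-length correction, at 0.60 (adjusted p = 0.0434). Its adjusted p ranged from 0.0358 to 0.362 over 16 alternatives.

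Because ratios within a library need no scaling between libraries, the make-up of the TET transcripts was also taken per library. TET3 made up 48.4% and 49.4% of summed TET reads per kilobase in the siControl libraries and 64.1% and 65.4% in the siNSUN2 libraries. TET2 went from 48.5% and 47.6% to 33.5% and 32.3%, and TET1 from 3.13% and 2.95% to 2.37% and 2.25%. The ratio of TET3 to TET2 was 0.998 and 1.04 in siControl and 1.91 and 2.02 in siNSUN2 libraries. The TET transcripts therefore went from near equal TET2 and TET3 to mostly TET3, by merged exon length. These shares carry no GC-length correction, after which TET3 rose by 1.08 and TET2 by 0.40 on the log2 scale. With the longest transcript as the length, TET3 made up 39.4% and 55.6% on average and TET2 led in siControl cells. Groups of 2 cannot reach a permutation p below 0.333, so no test of these shares is given.

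**Figure D2:**
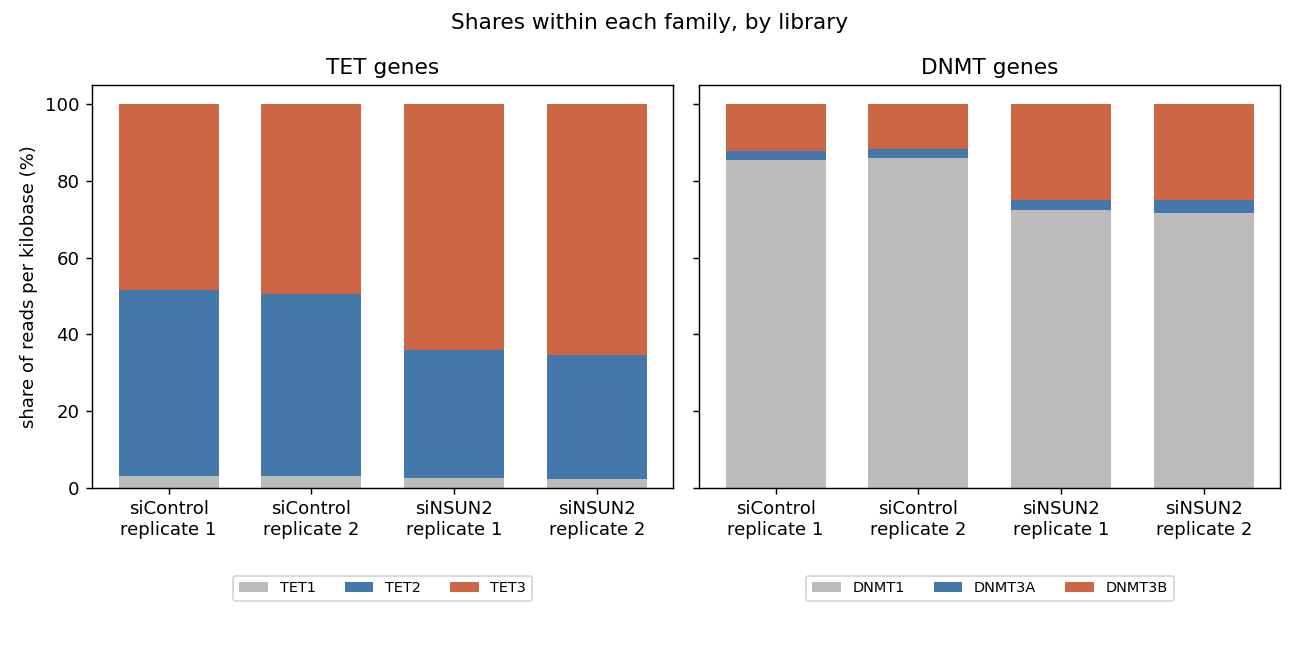
Share of each gene in the summed reads per kilobase of merged exons of its family (vertical axis, percent), with 1 stacked bar per library, for the TET genes on the left and the DNMT genes on the right. TET3 takes 48.4% to 49.4% of the TET bars in siControl and 64.1% to 65.4% in siNSUN2 libraries, and DNMT3B 11.7% to 12.2% and 24.9% to 25.0% of the DNMT bars.

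Of the de novo methyltransferases, DNMT3B, which methylates satellite repeats and gene bodies and is mutated in ICF syndrome, had 768 and 3661 counts in siControl and 3853 and 1418 in siNSUN2 libraries. The scaled values were 18.1 and 17.2 against 42.0 and 41.4 CPM, and the groups were far apart. The log2 fold change was 1.24 (SE 0.055, 95% interval 1.12 to 1.37, adjusted p = 2.32e-07). With each library left out it ran from 1.19 to 1.26, and after the GC-length correction it was 1.09.

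DNMT3A, its paralog, was less abundant, at 8.64 and 8.43 CPM in siControl and 12.4 and 14.2 CPM in siNSUN2 libraries. Both siNSUN2 libraries were higher, and they differed more from each other than the controls did. The rise was 0.64 on the log2 scale (SE 0.093, 95% interval 0.43 to 0.85, adjusted p = 3.19e-04), and 16.5% of all genes tested had a larger log2 fold change. After the GC-length correction the rise of DNMT3A was 0.43 (adjusted p = 0.00772). The intervals of DNMT3A and DNMT3B do not overlap, and the ratio of DNMT3B to DNMT3A per kilobase was 5.43 and 5.30 in siControl and 8.80 and 7.57 in siNSUN2 libraries.

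DNMT1, the maintenance enzyme, changed little: 268 and 269 CPM in siControl and 258 and 252 CPM in siNSUN2 libraries. The siNSUN2 libraries were both lower, yet the log2 fold change of −0.08 (SE 0.038) did not pass (adjusted p = 0.128), and its 95% interval of −0.16 to 0.01 spans 0.894 to 1.01 times the control level. It passed in 5 of 17 alternatives. DESeq2 gave −0.10 (adjusted p = 0.027), upper-quartile scaling −0.09 (adjusted p = 0.0214) and testing only genes that averaged 5 CPM or more −0.08 (adjusted p = 0.0229). Without siControl replicate 1 the value was −0.15 (adjusted p = 0.0184), and after the GC-length correction it was −0.30 (adjusted p = 7.41e-05). Over all 17 alternatives the adjusted p ran from 7.41e-05 to 1.0.

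With DNMT1 nearly level before the GC-length correction and the de novo enzymes higher, the make-up of the DNMT transcripts moved. DNMT1 made up 85.5% and 86.1% of summed DNMT reads per kilobase in siControl and 72.3% and 71.7% in siNSUN2 libraries. DNMT3B went from 12.2% and 11.7% to 24.9% and 25.0%, and DNMT3A from 2.25% and 2.20% to 2.83% and 3.30%. Summed DNMT3A and DNMT3B reads per kilobase were 0.169 and 0.161 times those of DNMT1 in siControl and 0.383 and 0.394 times in siNSUN2 libraries. Summed TET transcripts rose relative to summed DNMT transcripts as well, from ratios of 0.164 and 0.173 to 0.269 and 0.266. The TET sum went from 5.26 and 5.51 to 9.79 and 9.52 RPKM, and the DNMT sum from 32.0 and 31.9 to 36.4 and 35.8 RPKM. No GC-length correction enters these shares, ratios and sums. With it, the log2 fold change was −0.30 for DNMT1, 0.43 for DNMT3A and 1.09 for DNMT3B. Whether the DNMT sum also rises with that correction was not tested.

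UHRF2, a paralog of UHRF1 that binds 5-hydroxymethylcytosine, fell. It stood at 61.4 and 61.0 CPM in siControl and 50.8 and 49.5 CPM in siNSUN2 libraries, without overlap. The log2 fold change was −0.29 (SE 0.042, adjusted p = 3.35e-04), and it was −0.14 after the GC-length correction (adjusted p = 0.0138). UHRF2 did not pass against a fold of 1.2 (adjusted p = 0.274).

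TDG, the glycosylase downstream of the TET enzymes, fell from 72.5 and 75.5 CPM to 61.3 and 60.8 CPM, again without overlap. The log2 fold change was −0.28 (SE 0.043, adjusted p = 4.52e-04). After the GC-length correction it was −0.03 and did not pass (adjusted p = 0.505), and it did not pass against a fold of 1.2 (adjusted p = 0.341). The ratio of TET3 to TDG per kilobase was 0.172 and 0.177 in siControl and 0.502 and 0.502 in siNSUN2 libraries. These ratios carry no GC-length correction, after which the log2 fold change was 1.08 for TET3 and −0.03 for TDG.

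**Figure D3:**
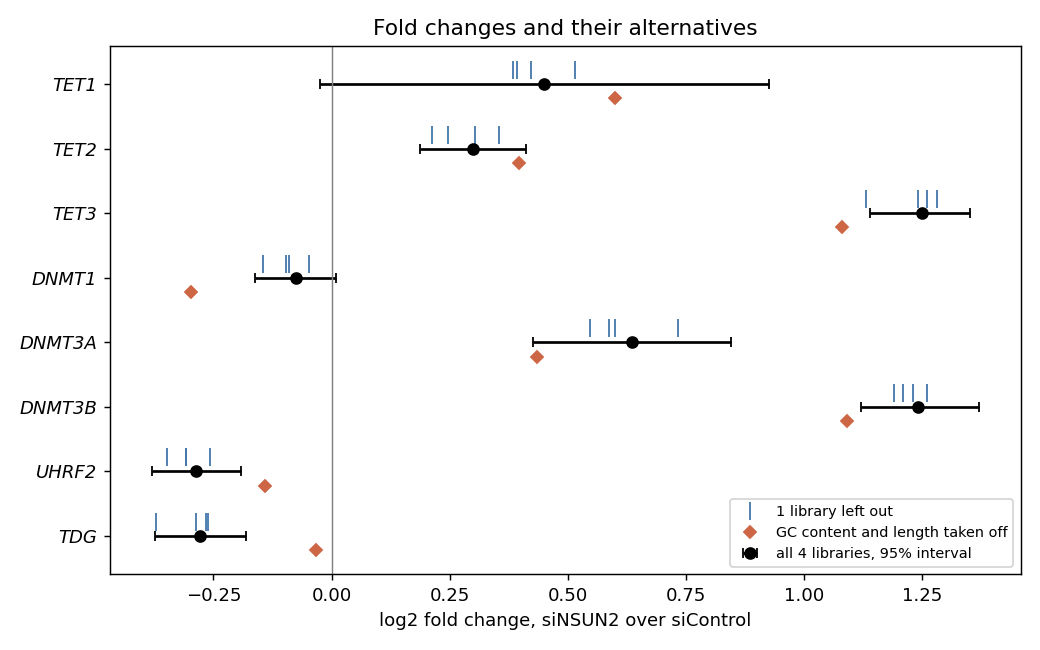
Log2 fold change of siNSUN2 over siControl (horizontal axis) for the 8 genes: black points with 95% intervals from all 4 libraries, blue ticks with 1 library left out, orange diamonds after the correction for GC content and length. TET3 and DNMT3B stay above 1 throughout, and TDG goes from −0.28 to −0.03 with the correction.

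In all 8 genes the CPM values of the groups did not overlap, as in 74.6% of all genes tested. The 4 genes that rose have longest transcripts with 53.7% (DNMT3A), 53.9% (DNMT3B), 52.3% (TET3) and 43.0% (TET2) GC, and the 2 that fell 44.2% (UHRF2) and 39.5% (TDG). Over genes with average log2 CPM above 3, GC content went with the fold change: in the fifth of genes with 50.2% to 57.0% GC, which holds TET3, DNMT3A, DNMT3B and DNMT1, 46.6% rose and 21.6% fell (median 0.14). In the fifth of lowest GC content, which holds TDG, 16.3% rose and 58.5% fell (median −0.22), and in the next, which holds TET2 and UHRF2, 17.4% rose and 54.5% fell (median −0.20). TET2 thus rose in a GC range where most called genes fell. Genes with the letters ACCCTA in the longest 3′ UTR of a coding transcript also fell more often than others, 44.7% of 2657 against 27.0% of 9881; 0 of the 8 genes hold these letters there.

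Few reads were counted for annotated relatives of these genes. The pseudogenes TET1P1, DNMT3AP1 and UHRF2P1 had 0 to 3 counts in any library, and TDGP1 had 20 to 112, at most 1.4% of the TDG count. The one gene with exons annotated over those of a measured member is S1PR2, which shares 83 bases with DNMT1 on the same strand and had at most 0.51% of its count. Splice forms, which matter for DNMT3B and TET3 because some lack catalytic or DNA-binding parts, cannot be separated in gene counts.

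The likeness of profiles was measured as the Euclidean distance between centred log2 CPM values over the 4 libraries. Among 10036 other coding genes with average log2 CPM of at least 2, ITPKA, CRY2 and PLXNA3 lay nearest to TET3, at distances of 0.022, 0.031 and 0.038, with log2 fold changes of 1.26, 1.24 and 1.21. DNMT3B lay at 0.12, with 87 genes nearer. DNMT3A, at 0.64, had 1257 genes nearer. With 4 libraries in 2 groups, such a distance mostly restates the fold change.

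The genes around this machinery were taken as 7 lists, whose medians stand beside 0.03 for all genes tested and whose counts stand beside 27.1% rising and 25.5% falling among all genes tested. No test was made of any list as a whole. Of 10 genes listed as methyl-CpG binding proteins, 4 rose and 3 fell, with 3 not passing, and the median was −0.02. The list includes MBD3, MBD5 and MBD6, and whether each listed protein binds methylated CpG sites was not examined. MBD2, a subunit of NuRD complexes that binds methylated DNA, fell from 161 ± 1.00 to 96.0 ± 3.16 CPM (n = 2 each), a log2 fold change of −0.74. ZBTB33, which encodes Kaiso, fell by 0.63 on the log2 scale and by 0.40 after the GC-length correction, and ZBTB4 rose by 0.45, or 0.14 with that correction.

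Of the base excision repair partners of TDG, 13 of 14 were tested, of which 4 rose and 5 fell, with 4 not passing and a median of 0.0035; after the GC-length correction 2 rose. APEX1, the endonuclease that cuts the abasic site TDG leaves, showed the largest fall of this list, going from 158 ± 2.24 to 46.5 ± 0.930 CPM (−1.77 on the log2 scale, adjusted p = 1.8e-08). LIG3, POLB, PARP1 and NEIL3 were the others that fell. XRCC1 and NEIL1 rose, by 0.65 and 1.09, NEIL1 from 0.699 to 1.47 CPM. Neither passed after the GC-length correction (XRCC1 0.32, adjusted p = 0.0738, and NEIL1 0.61, adjusted p = 0.112). POLB went from −0.48 to −0.24 with the GC-length correction, and NEIL3 from −0.29 to −0.05, where it did not pass (adjusted p = 0.536). The stress-induced genes GADD45A and GADD45B, which have been linked to active demethylation, rose from 121 ± 0.487 to 187 ± 4.40 CPM (0.63) and from 38.3 ± 0.408 to 71.2 ± 0.122 CPM (0.89, and 0.53 with the correction).

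Among 18 TET partners and genes of 2-oxoglutarate supply, 4 rose and 10 fell, with 4 not passing; the median was −0.18, and −0.03 after the GC-length correction. The isocitrate dehydrogenase subunit gene IDH3A fell by 0.47, and IDH3G rose by 0.43 but did not pass after that correction (adjusted p = 0.999). OGT, the O-GlcNAc transferase that binds TET proteins, had a log2 fold change of −0.0047 (adjusted p = 0.93). After the GC-length correction OGT was at 0.13 and passed as higher (adjusted p = 0.0105).

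Of 22 partners of DNMT1, DNMT3 enzymes and UHRF1, 21 were tested; 5 rose and 10 fell, with 6 not passing and a median of −0.08. After the GC-length correction 1 rose. CDCA7, which with the remodeler HELLS opens heterochromatin for methylation, fell from 131 ± 2.24 to 70.2 ± 1.80 CPM (−0.89), ZBTB24, which activates CDCA7, from 42.3 ± 1.05 to 26.6 ± 1.74 CPM (−0.67) and CDCA7L by 0.49 on the log2 scale. HELLS itself fell by 0.36, or by 0.13 with the GC-length correction. CDCA7, ZBTB24 and HELLS are, with DNMT3B, genes of ICF syndrome, and DNMT3B rose. HELLS and the grouping by syndrome were chosen after their values were seen.

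In the S-adenosylmethionine cycle, which supplies the methyl donor, 10 of 12 genes were tested; 2 rose and 6 fell, with 2 not passing and a median of −0.18; after the GC-length correction 0 rose. This list includes AHCYL1 and AHCYL2, relatives of AHCY, and whether each listed protein acts in the cycle was not examined. AHCYL2 fell by 0.66, MTRR, which reactivates methionine synthase, by 0.52 (0.31 with the correction) and MTAP, of methionine salvage, by 0.48 (0.29 with the correction). Since DNMT1 is transcribed mainly in cycling cells, S phase genes are given beside it: of 24, 5 rose and 10 fell, with 9 not passing and a median of −0.08. MCM4 and MCM6 of the replicative helicase fell by 0.91 and 0.86, and the licensing factor CDT1 rose by 0.78 (0.15 with the correction). Whether a change in cycling had a part in the DNMT1 value was not tested.

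Of 20 germline genes that DNA methylation holds silent in somatic cells, 15 did not pass the filter on low counts. These 15 had 0 to 22 counts in any library, and SYCE1, TEX101, FKBP6 and SOHLH2 had 0 in all of them. Those that passed did so in part through the group where they are high, so no median is read from them. HORMAD1, a meiotic chromosome protein, fell from 7.14 ± 0.222 to 2.41 ± 0.0640 CPM (−1.57), and STK31 from 1.16 ± 0.417 to 0.366 ± 0.145 CPM (−1.58; it did not pass without siNSUN2 replicate 2). TEX14, of germ cell bridges, rose from 1.31 ± 0.147 to 2.56 ± 0.350 CPM (0.97). DDX4, with 3 and 1 counts in siControl and 17 and 7 counts in siNSUN2 libraries, was called higher at an adjusted p of 0.0491. DDX4 was not called without siControl replicate 2 or without either of the siNSUN2 libraries. DNA methylation itself was not measured.

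Of the list genes named here, MBD2, ZBTB33, APEX1, LIG3, ZBTB24, AHCYL2, MTAP, MCM4 and HORMAD1, which fell, and IDH3G, which rose, hold ACCCTA in the 3′ UTR; whether these letters have a part in their values was not tested.

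**Figure D4:**
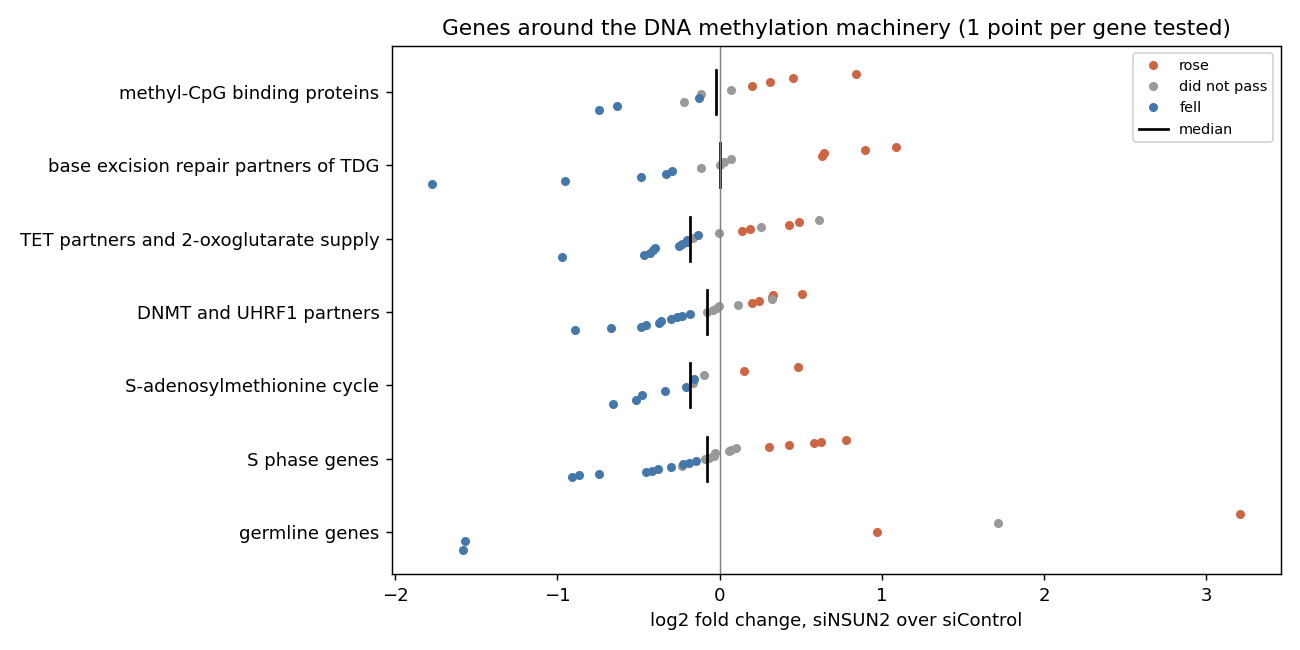
Log2 fold change of siNSUN2 over siControl (horizontal axis) for each tested gene of the 7 lists (rows), with orange points for genes that rose, blue for genes that fell, grey for genes that did not pass, and a black line at the median of every list but the germline one. The lowest point is APEX1 at −1.77, in the base excision repair list, and 5 lists have medians from −0.18 to −0.02.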

How the data were processed

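The authors deposited raw read counts by Ensembl gene ID in a single table of 4 columns. The submitters' processing notes name HISAT2, HTSeq and hg19; versions, annotation and strand setting were not given in the sources used here. Groups came from the sample titles. Symbols were found for 51537 IDs (gene name tables and GENCODE release 29, by ID only).

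The filter (filterByExpr) kept 16889 genes with 99.96% of the counts. Genes were tested with edgeR 4.0.16 (R 4.3.3) by its quasi-likelihood method (robust, TMM, group only), two-sided, with Benjamini-Hochberg adjustment over all genes and a threshold of 0.05. It was checked on simulated counts. Standard errors come from the F statistic. Chi-square per degree of freedom between the libraries of a group was 20.5 (siControl) and 13.5 (siNSUN2), more spread than counting alone gives. The libraries were counted as separate samples, although these values cannot tell separate cultures from separate library preparations.

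Alternatives were DESeq2 1.42.0, limma-voom (limma 3.58.1), other scalings, filters, thresholds and lengths, a replicate block, each library left out, thinning to the smallest total, and loess trends (span 0.5) on GC content and length, known for 96.4% of genes tested.

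The genes and lists were chosen with earlier results of these data known. Named were all genes of the family, NSUN2, pseudogene and antisense rows with counts, up to 3 called genes of smallest p per list, and the 3 profiles nearest to the gene with the largest change. A gene so selected is not reported here. Other genes were named after their values were seen. Promoters are from RefSeq. Python 3.11.15, numpy 2.4.6 and pandas 2.3.3 were used.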

Additional observations from a re-analysis of the deposited data

How the results depend on the processing

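Over 135 alternative values for the 8 genes, none reversed in direction, 124 stayed on the same side of the threshold, 4 lost the call and 7 gained it (TET1 in 2, DNMT1 in 5). The count of 4 rises and 2 falls kept within 1.5 times except against a fold of 1.2, where 3 rose and 0 fell (2913 and 2529 of all genes). TET3, DNMT3B and DNMT3A passed in all 17; TET1 lies below a filter at 5 CPM and has 16. The replicate numbers share only a number (correlation of deviations 0.0878). With the replicate block 4 rose and 2 fell, and 5 genes of the methyl-CpG binding list fell in place of 3. The block changed no call of the 8 genes. After the correction for GC content and length, which moved all shared genes by a median of 0.08, rises numbered 2 among repair partners, 1 among DNMT partners and 0 in the S-adenosylmethionine cycle. With a filter at 5 CPM the germline list had 0 rises and 0 falls, since its genes lie below it. With each library left out, rises ran from 2 to 4 among TET partners (2 without siControl replicate 2) and from 1 to 2 in the S-adenosylmethionine cycle (1 without siControl replicate 1, siControl replicate 2 or siNSUN2 replicate 1), and germline rises and falls each from 1 to 2 (1 rise without siControl replicate 2 or either siNSUN2 library, 1 fall without siNSUN2 replicate 2). The cause was not tested. By longest transcript and by coding length, TET3 made up 39.4% and 45.2% of TET reads per kilobase in siControl and 55.6% and 61.4% in siNSUN2 cells, and DNMT3B 7.45% and 10.6% against 16.5% and 22.3% of DNMT reads. Depth limits mainly TET1, with 65 to 321 counts.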
